A study of Homo sapiens with 6 samples.

Results

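The genes described here are the EGF-family ligands AREG, EREG, HBEGF, TGFA, BTC and NRG1, the receptors EGFR, ERBB2 and ERBB3, and the receptor inhibitor ERRFI1. They were taken by gene name from an RNA-seq table of 26025 genes. Of the 10 genes named, 9 have a row in it, and EREG was not analysed here. The cells were NCI-H1299, a human line established from non-small cell lung cancer, with no genetic change made for this experiment. There were 3 Ctrl libraries, named by vehicle as DMSO in the titles and as PBS in the treatment notes, and 3 libraries of cells given 10 µM norepinephrine (NE). Both groups were kept for 48 h in medium with 2% serum. The authors' methods describe starvation of the cells before treatment. NE was used as a model of the stress signal that reaches a tumor, and the comparison asks which genes respond to it. All libraries come from 1 line and 1 time point, and the labels do not say whether the 3 libraries of a group were separate cultures, so that p-values measure only the spread between these libraries, which may be technical.

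EGF-family ligands are made as membrane-bound precursors and are cut loose by ADAM proteases. AREG, TGFA, BTC, HBEGF and EREG bind EGFR, BTC, HBEGF and EREG bind ERBB4 as well, and NRG1 binds ERBB3 and ERBB4. Bound receptors pair with each other, often with ERBB2, which has no ligand of its own, and signal through RAS-ERK and PI3K-AKT. In lung cancer EGFR is a well-known oncogene and drug target. ERRFI1, also called MIG6, binds the kinase domain of active EGFR and blocks it, and its gene is induced by the same signalling. NE acts through adrenergic receptors, of which the beta type raises cAMP and activates CREB, a factor that binds the cAMP response element (CRE).

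Every value is a gene's read count after division by a library-wide size factor and is called a normalized count below. Each library held between 16852751 and 17979206 reads on genes. Ctrl replicate 3 stood apart, with 7305 genes at 0 reads against 3954 to 4833 in the other 5 libraries, and values that depend on it are given with and without it. The log2 fold change of a gene with NE followed the GC content of its exons, with a Spearman correlation of -0.644 across 14955 genes, which are not independent replicates. A fit with each library's GC trend removed is therefore given beside the main one, and the part of GC content in each result was not tested. The line's keratins were abundant and lower with NE, KRT18 at 22472 ± 4004 (SD, n = 3) normalized counts in Ctrl and 7248 ± 498 in NE, and KRT8 at 12452 ± 2337 and 5907 ± 619. VIM was at 66719 ± 9989 and 51194 ± 6595. Of 9 markers of leukocytes, fibroblasts and endothelium 7 were listed, PTPRC and CD3E not being among them, and their summed normalized count was 72.3 to 76.4 in the Ctrl and 43.9 to 81.0 in the NE libraries. CD68 had at most 2 reads in any library, and COL1A2 had 0 reads in 5 of the 6. PECAM1 had 17 to 37 reads, and COL1A1 had 26, 19 and 24 in Ctrl against 9, 8 and 12 in NE libraries. VWF had 2 to 23 reads, DCN 0 to 19 and CDH5 0 to 10.

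TGFA had the largest change in the fit with all libraries; without Ctrl replicate 1 AREG had the larger log2 fold change, 1.77 against 1.69. The RNA of TGFA rose 3.33-fold with NE, and that of its receptor EGFR rose 1.34-fold. The RNA of ERRFI1, an inhibitor of the receptor, fell to 0.648 of its Ctrl level. EGFR passed the test in only 2 of the 6 fits that left out 1 library. AREG rose 2.60-fold from a very low level, and ERBB2 fell to 0.669 of its Ctrl level. HBEGF, BTC, NRG1 and ERBB3 did not pass the test in the fit with all libraries. All 9 genes had a mean of at least 10 normalized counts and were tested, and 3 rose and 2 fell at a Benjamini-Hochberg adjusted p under 0.05 over all genes (limma on log2 of the normalized count plus 1). Among all 15013 genes tested 50.1% passed, 24.6% upward and 25.5% downward, so the members' share of changed genes was close to that of the whole table. TGFA and AREG also had a log2 fold change of at least 1, the study's second criterion. Both criteria together were met by 14.0% of all tested genes, 7.47% upward and 6.55% downward. The 2 groups of libraries did not overlap for 5 of the 9 genes, against 58.6% of all tested genes. NE was above Ctrl for 3 of them (29.7% of all genes) and below for 2 (28.9%). The median log2 fold change of the 9 was 0.35, and that of all tested genes 0.01.

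After GC correction 2 members were higher and 1 was lower at an adjusted p under 0.05 by limma, TGFA, EGFR and ERRFI1, against 32.2% of all genes (14.5% higher and 17.7% lower). TGFA alone was past both criteria, against 5.98% of all genes (3.67% higher and 2.31% lower). Without Ctrl replicate 3, 5 members were higher and 2 lower, against 64.4% of all genes (31.9% and 32.5%), BTC and NRG1 being the additional ones. There too TGFA alone was past both criteria, against 20.8% of all genes (10.8% higher and 10.0% lower).

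TGFA encodes transforming growth factor alpha, a ligand of EGFR. Its normalized counts in Ctrl were 1891, 1896 and 2320, and those in NE were 6996, 6668 and 6649. Every NE library was far above every Ctrl library, and the spread inside each group was small beside the gap. NE exceeded Ctrl by 1.74 on the log2 scale (standard error 0.11, adjusted p = 1.9e-05 by limma), which placed TGFA at rank 251 of 15013 tested genes by rise. An exact permutation test over the 6 libraries, two-sided, gave p = 0.1, the smallest possible with these group sizes. Dropping any one library moved the log2 fold change only between 1.69 and 1.84, and it was 1.75 after GC correction (adjusted p = 4.83e-06 by limma). The exons of TGFA have a GC content of 47.9%.

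TGFA spans bases 70447284 to 70554193 of chromosome 2 on the minus strand (hg38, GENCODE v44). Because it had the largest change, a promoter window of RefSeq (GRCh38.p14) is shown, chr2:70553777-70554076. It is on the minus strand and begins 250 bases before a RefSeq start at base 70553826. The whole window lies inside the GENCODE span of the gene. Matches to the searched motifs are in capitals.
TGFA: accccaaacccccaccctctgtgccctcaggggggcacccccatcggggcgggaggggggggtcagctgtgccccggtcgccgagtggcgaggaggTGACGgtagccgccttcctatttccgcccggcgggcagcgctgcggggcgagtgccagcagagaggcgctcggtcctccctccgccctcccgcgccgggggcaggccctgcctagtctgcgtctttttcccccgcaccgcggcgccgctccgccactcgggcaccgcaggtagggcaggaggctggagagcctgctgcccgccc
The motifs searched on both strands were the CRE TGACGTCA, its core TGACG, which lies inside the full site, and the AP-1 site TGANTCA. The TGFA window holds 1 core, at position -154 from the start, and neither of the longer motifs. Such cores stand in 24.6% of the 35116 promoter windows in the RefSeq table, and AP-1 sites in 7.71%. A second TGFA window, around a start at base 70553446, holds none of the 3 motifs.

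AREG encodes amphiregulin, another EGFR ligand. Its promoter is shown because it is the one with a full CRE among the 8 members searched. The gene lies on the plus strand of chromosome 4 from 74445136 to 74455005, and the window is chr4:74444886-74445185 (GRCh38.p14), with the CRE in capitals.
AREG: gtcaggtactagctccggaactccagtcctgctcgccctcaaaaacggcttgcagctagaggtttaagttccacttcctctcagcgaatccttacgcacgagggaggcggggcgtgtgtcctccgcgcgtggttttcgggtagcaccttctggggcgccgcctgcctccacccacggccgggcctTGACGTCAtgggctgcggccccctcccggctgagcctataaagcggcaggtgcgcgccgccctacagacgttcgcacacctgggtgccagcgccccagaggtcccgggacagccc
The CRE occupies bases 74445071 to 74445078, at position -65 from the start of the gene, and both its strands hold the core. A full CRE was found in 1.85% of all promoter windows. Among the 8 members searched, which leave out NRG1 and ERBB3, the windows of ERRFI1, BTC and HBEGF held none of the 3 motifs. The window at the gene start of EGFR held none either. A second EGFR window, around a start at base 55109839, held 2 AP-1 sites. The ERBB2 window held 1 AP-1 site and the EREG window 1 core. A match of letters describes the sequence and does not show that a factor binds there.

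The RNA of AREG was scarce. In Ctrl its normalized counts were 26.2, 21.8 and 7.84, which are 25, 21 and 8 reads, and in NE they were 35.6, 49.4 and 60.3, which are 36, 51 and 66 reads. The NE libraries all lay above the Ctrl libraries, with the lowest value in Ctrl replicate 3. On the log2 scale the rise was 1.46 (standard error 0.46, adjusted p = 0.0248 by limma), and 0.96 without Ctrl replicate 3 (adjusted p = 0.0187). The call was lost without NE replicate 2 (adjusted p = 0.0757) and without NE replicate 3 (adjusted p = 0.0972), and after GC correction, at 1.08 (adjusted p = 0.121 by limma), or 0.52 without Ctrl replicate 3 as well (adjusted p = 0.23). Reads without molecular identifiers are not independent molecules, so that counting error is only a lower limit on the error of such values.

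HBEGF encodes the heparin-binding ligand of EGFR and ERBB4. Among the 5 member ligands with a row it was next to TGFA in abundance, and it did not separate the groups. It had 366.5, 294.5 and 387.1 normalized counts in Ctrl and 320.2, 314.8 and 377.4 in NE libraries. The ranges lie almost on top of each other, and the log2 fold change was -0.05 (standard error 0.15, adjusted p = 0.824 by limma), with values from -0.16 to 0.03 when each library was left out. The sign also turned with GC correction and with scaling to the total reads on genes, so that no direction can be given. The gene lies on chromosome 5 from 140332843 to 140346603.

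BTC encodes betacellulin, and its gene lies on chromosome 4 from 74744759 to 74794523, 289753 bases beyond AREG. It had 23.0, 30.1 and 61.7 normalized counts in Ctrl and 46.4, 42.6 and 67.6 in NE libraries. Ctrl replicate 3 reached the level of the NE libraries, whereas the other Ctrl libraries were below all of them. Between the groups the log2 fold change was 0.53 (standard error 0.38, adjusted p = 0.27 by limma), 0.93 without Ctrl replicate 3 (adjusted p = 0.0181) and -0.07 after GC correction (adjusted p = 0.89). The exons of BTC have the lowest GC content of the 9 genes, 38.7%. After GC correction without Ctrl replicate 3 the log2 fold change was 0.20.

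NRG1, the gene of neuregulin 1 on chromosome 8, showed the same pattern of libraries. Its normalized counts were 116.2, 116.1 and 169.5 in Ctrl and 158.1, 161.7 and 175.5 in NE libraries. Here too Ctrl replicate 3 lay within the NE range and the other Ctrl libraries lay below it. In NE it was higher by 0.32 on the log2 scale (standard error 0.19, adjusted p = 0.188 by limma), 0.50 without Ctrl replicate 3 (adjusted p = 0.0146) and -0.01 after GC correction (adjusted p = 0.969). Without Ctrl replicate 3 and with GC correction it was 0.12 (adjusted p = 0.572), and that of BTC in the same fit did not pass either (adjusted p = 0.655). BTC and NRG1 thus passed without Ctrl replicate 3 but not once GC content was corrected as well.

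To compare genes with each other, the reads were divided by the length of the merged exons and scaled to the library's total reads on genes (FPKM). In Ctrl the ligands ranked TGFA at 23.0 ± 3.25 FPKM (SD, n = 3), HBEGF at 6.50 ± 0.994, BTC at 0.807 ± 0.451, AREG at 0.625 ± 0.315 and NRG1 at 0.349 ± 0.0876. TGFA and HBEGF were each clear of the next gene, whereas the values of BTC, AREG and NRG1 ran into each other. In NE the order was TGFA at 84.1 ± 1.65 FPKM, HBEGF at 6.91 ± 0.970, AREG at 1.81 ± 0.535, BTC at 1.21 ± 0.357 and NRG1 at 0.473 ± 0.0455. AREG thus moved past BTC in the mean, but the libraries of these 2 genes overlapped. The level of NRG1 per length is a low estimate where cells use its short transcripts, since the merged exons of its many transcripts add up to 21372 bases. In these bulk samples, fewer cells that make a transcript and less of it per cell cannot be told apart.

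The 5 ligands together rose from 31.3 ± 4.27 to 94.5 ± 3.48 FPKM (SD, n = 3). TGFA made up 71.6%, 75.0% and 74.0% of this sum in the Ctrl libraries and 90.3%, 89.5% and 87.3% in the NE libraries. The other 4 ligands summed to 8.28 ± 1.17 FPKM in Ctrl and 10.4 ± 1.85 in NE, with overlapping groups (exact permutation test, two-sided, p = 0.2). These sums and shares leave out NRG2, a family ligand outside the members that is described below. It was at 6.56 ± 1.20 FPKM in Ctrl and 2.50 ± 0.553 in NE. The share of HBEGF went from 20.8% ± 1.87 to 7.30% ± 0.743 at a level that did not separate the groups.

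EGFR, the receptor of TGFA and AREG, lies on chromosome 7 from 55019017 to 55211628. Its normalized counts were 1537, 1662 and 1774 in the Ctrl and 2500, 2160 and 1981 in the NE libraries. The groups did not overlap, but NE replicate 3 was only a little above Ctrl replicate 3. EGFR rose by 0.41 on the log2 scale (standard error 0.12, adjusted p = 0.0171 by limma), and 0.33 after GC correction (adjusted p = 0.0376 by limma). The adjusted p rose above 0.05 without Ctrl replicate 1 (0.0671), Ctrl replicate 2 (0.0526), NE replicate 1 (0.0618) or NE replicate 2 (0.057), while the log2 fold change stayed between 0.32 and 0.49. EGFR shares 186 of its 15941 exon bases with the antisense gene EGFR-AS1.

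ERBB2 encodes HER2, the preferred partner of the other receptors. It lies on chromosome 17 from 39687914 to 39730426. Its normalized counts were 914.2, 922.9 and 785.9 in Ctrl and 651.2, 558.8 and 545.5 in NE libraries, with all NE libraries below all Ctrl libraries. On the log2 scale the difference was -0.58 (standard error 0.13, adjusted p = 0.00457 by limma), between -0.66 and -0.53 with each library left out. After GC correction it was -0.05 (adjusted p = 0.768), and the exons of ERBB2 have the highest GC content of the 9 genes, 57.6%. ERBB2 shares 571 exon bases with MIEN1 and 144 with PGAP3, both on the opposite strand, of 10321 in all, and whether reads were counted by strand is not given in the sources used here.

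ERBB3, a receptor with a weak kinase that binds neuregulins, was barely detected. It had 41, 44 and 17 reads in the Ctrl and 36, 39 and 57 in the NE libraries, or 42.9, 45.6 and 16.7 against 35.6, 37.8 and 52.1 normalized counts. The groups overlapped, with the lowest value in Ctrl replicate 3. The log2 fold change was 0.35 (standard error 0.40, adjusted p = 0.49 by limma) and -0.10 without Ctrl replicate 3 (adjusted p = 0.776).

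Per length, the receptors ranked EGFR, ERBB2 and ERBB3 in both groups, at 5.78 ± 0.510, 4.70 ± 0.327 and 0.165 ± 0.0735 FPKM in Ctrl and 8.45 ± 0.644, 3.45 ± 0.201 and 0.219 ± 0.0559 in NE (SD, n = 3). No neighbours in this order overlapped in either group. The ratio of EGFR to ERBB2 was 1.09, 1.17 and 1.46 in the Ctrl and 2.49, 2.50 and 2.35 in the NE libraries. Per merged exon length EGFR was above ERBB2 in every library, and every NE ratio was above every Ctrl ratio. The merged exons of all transcripts add up to 15941 bases for EGFR and 10321 for ERBB2. Which transcripts the cells use was not tested, so the order and shares of the receptors hold only for these lengths. EGFR made up 54.3% ± 4.11 of the summed level of the 3 receptors in Ctrl and 69.7% ± 1.07 in NE. An exact permutation test of this share gave p = 0.1, the smallest possible here. The highest Ctrl ratio was that of Ctrl replicate 3, and the ratio includes the ERBB2 difference that was near 0 after GC correction.

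**Figure D1:**
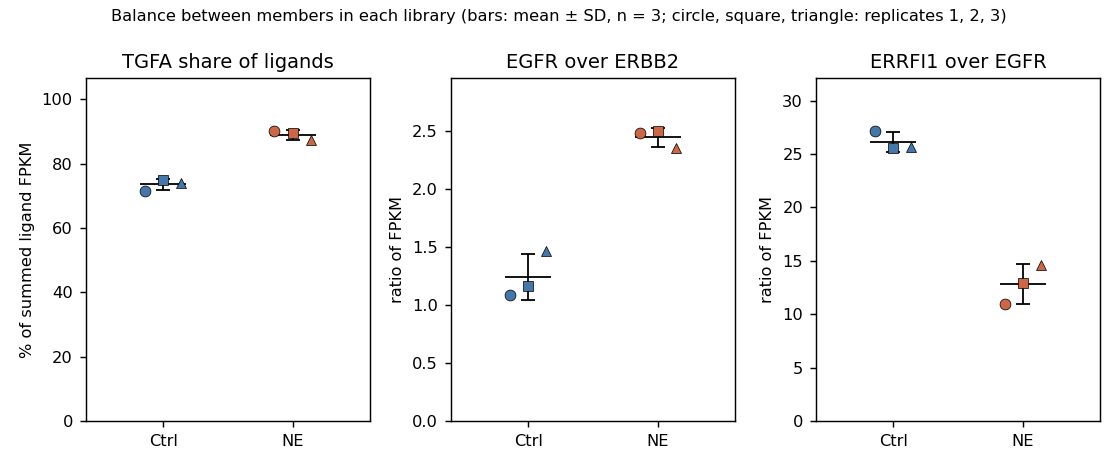
Share of TGFA in the summed FPKM of the 5 ligands (left), ratio of EGFR to ERBB2 (middle) and ratio of ERRFI1 to EGFR (right) in each library, y axes from 0, with the mean ± SD (n = 3). In each panel the 3 NE libraries (orange) lie apart from the 3 Ctrl libraries (blue): TGFA share at 87.3% to 90.3% against 71.6% to 75.0%, EGFR to ERBB2 at 2.35 to 2.50 against 1.09 to 1.46, and ERRFI1 to EGFR at 10.9 to 14.6 against 25.5 to 27.2.

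ERRFI1, the inhibitor, had the highest level of the 9 genes per length. It lies on chromosome 1 from 8004404 to 8026309 and had 10954, 11130 and 11944 normalized counts in Ctrl and 7149, 7308 and 7588 in NE libraries. Every NE library was far below every Ctrl library. The log2 fold change was -0.63 (standard error 0.09, adjusted p = 0.000673 by limma), between -0.65 and -0.59 with each library left out. After GC correction it was -0.97 (adjusted p = 4.28e-05 by limma), larger by over 1.5 times on the log2 scale, and with quantile normalization it was -0.29 (adjusted p = 0.0501). The ratio of ERRFI1 to EGFR per length was 27.2, 25.5 and 25.7 in the Ctrl and 10.9, 12.9 and 14.6 in the NE libraries. On this scale the RNA of the inhibitor was above that of the receptor in all libraries. The excess was smaller in every NE library than in any Ctrl library. The size of the ratio holds only for the merged exon lengths, 4179 bases for ERRFI1 and 15941 for EGFR. ERRFI1 shares 155 of its 4179 exon bases with a noncoding gene on the opposite strand.

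Of the 6 family genes that are not among the members, EGF, EPGN, NRG2, NRG3, NRG4 and ERBB4, only NRG2 had a mean of at least 10 normalized counts. NRG2, the gene of neuregulin 2, had 612.6, 602.5 and 419.4 normalized counts in Ctrl and 148.2, 220.8 and 194.6 in NE libraries, with all NE libraries below all Ctrl libraries. It fell by 1.53 on the log2 scale (standard error 0.20, adjusted p = 0.000434 by limma), and by 0.90 after GC correction (adjusted p = 0.00151). Per length NRG2 went from 7.32, 7.18 and 5.17 FPKM to 1.88, 2.94 and 2.69, beside 5.40 to 7.35 FPKM for HBEGF in Ctrl. ERBB4, the remaining neuregulin receptor, had 2, 2 and 4 reads in Ctrl and 8, 5 and 4 in NE libraries. EGF had 0 to 5 reads in Ctrl and 1 to 10 in NE libraries, and NRG3 had 0 reads in each Ctrl library, which allows up to 3, against 4, 4 and 5 in NE. These counts are too low to compare.

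The genes that process the ligands moved in both directions. Of 9 sheddases and iRhoms 3 rose and 3 fell, against 24.6% and 25.5% of all genes, with a median log2 fold change of 0.35. RHBDF1 and RHBDF2 encode iRhom1 and iRhom2, the carriers that bring ADAM17, the main sheddase of TGFA and AREG, to the cell surface. RHBDF1 fell from 486.6 ± 13.3 to 194.8 ± 6.15 normalized counts (SD, n = 3), by 1.32 on the log2 scale (adjusted p = 0.00011 by limma). RHBDF2 fell by 0.99 (adjusted p = 0.000231), from 3408 ± 319 to 1719 ± 125. ADAM17 itself had a log2 fold change of 0.35 (adjusted p = 0.0835). Without Ctrl replicate 3 that of ADAM17 was 0.45 (adjusted p = 0.00624 by limma), and after GC correction -0.13 (adjusted p = 0.416). ADAM10, the main sheddase of BTC, rose by 0.82 (adjusted p = 0.00215), ADAM12 by 1.55 from 15.0 ± 5.90 normalized counts (adjusted p = 0.00608), and ADAM15 fell by 0.90 (adjusted p = 0.000414). ADAM8 was at 0.51 in the fit with all libraries (adjusted p = 0.315 by limma). Without Ctrl replicate 3 it was at 0.02 (adjusted p = 0.948). After GC correction 2 of the 9 genes were higher and 2 lower, against 14.5% and 17.7% of all genes. The higher ones were ADAM12 and ADAM8 (1.17, adjusted p = 0.0173). RHBDF1, RHBDF2 and ADAM12 kept an adjusted p under 0.05, at -0.69, -0.36 and 1.54, and ADAM10 and ADAM15 did not, at 0.16 (adjusted p = 0.17) and -0.27 (adjusted p = 0.161).

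In the relay from the receptors to ERK, 7 of 16 genes rose and 5 fell, against 24.6% and 25.5% of all genes, with a median log2 fold change of 0.08. SOS1, an exchange factor that loads RAS with GTP, rose by 1.11 (adjusted p = 0.000384 by limma) and the docking protein gene GAB1 by 1.13 (adjusted p = 0.00178). HRAS, a RAS gene, fell by 1.14 (adjusted p = 0.000179). SHC1, an adaptor of EGFR, fell by 0.73 (adjusted p = 0.000609) and MAP2K2, which encodes the ERK kinase MEK2, by 0.69 (adjusted p = 0.00205). The exons of SOS1 have a GC content of 37.1%, and those of HRAS and MAP2K2 one of 65.6% and 61.8%. Without Ctrl replicate 3, 8 of the 16 were higher and 5 lower, against 31.9% and 32.5% of all genes. After GC correction 3 of the 16 were higher and 3 lower, close to the 14.5% and 17.7% of all genes. SOS1, HRAS, GAB1 and SHC1 kept an adjusted p under 0.05 at smaller sizes, 0.45, -0.47, 0.52 (adjusted p = 0.0477) and -0.25 (adjusted p = 0.0369), and MAP2K2 (-0.06, adjusted p = 0.627) did not.

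In the PI3K-AKT branch 5 of 9 tested genes rose and 2 fell, against 24.6% and 25.5% of all genes, with a median of 0.44. PIK3CA, the catalytic subunit gene, rose by 1.01 (adjusted p = 0.00249 by limma) and PIK3R1, a regulatory subunit gene, by 0.90 (adjusted p = 0.00204). AKT1 fell by 0.86 (adjusted p = 0.000664). After GC correction 2 of the 9 passed, both higher, PIK3R1 at 0.42 (adjusted p = 0.0257) and PDPK1 at 0.66 (adjusted p = 0.00618), against 32.2% of all genes. PIK3CA, at 0.29 (adjusted p = 0.0826), and AKT1, at -0.22 (adjusted p = 0.0818), did not pass there. Without Ctrl replicate 3 all 9 passed, 7 of them higher, against 64.4% of all genes and 31.9% higher.

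Of 12 tested genes for inhibition, ubiquitination, dephosphorylation or recycling of the receptors 8 rose and 0 fell, against 24.6% and 25.5% of all genes. Their median log2 fold change was 0.79. Without Ctrl replicate 3, 9 were higher and 1, SOCS3, lower (-0.72, adjusted p = 0.00133 by limma). At an unadjusted p under 0.05 in the fit with all libraries 1 gene, PTPN1, was lower. SOCS2, best known as an inhibitor of growth hormone signalling, rose 3.68-fold from 141.7 ± 12.6 to 521.1 ± 12.5 normalized counts (SD, n = 3), or 1.88 on the log2 scale (standard error 0.13, adjusted p = 3.5e-05 by limma). CBLB, one of the CBL ubiquitin ligases that send EGFR to degradation, rose by 1.22 (adjusted p = 0.000398), and SOCS4 rose 1.99-fold (adjusted p = 0.00133). PTPN2, a phosphatase of EGFR, rose by 0.77 (adjusted p = 0.00121), LRIG2 by 0.82 (adjusted p = 0.00558) and USP8, a deubiquitinase that acts on EGFR at endosomes, by 0.90 (adjusted p = 0.0008). ERRFI1 thus fell while 8 of these 12 genes, which do not all restrain the receptors, rose. After GC correction 6 of the 12 were higher and 0 lower, against 14.5% and 17.7% of all genes, with SOCS2 at 2.04 (adjusted p = 5.03e-06 by limma), CBLB at 0.59, USP8 at 0.37 and SOCS4 at 0.30 (adjusted p = 0.0487). PTPN2 (0.31, adjusted p = 0.159) and LRIG2 (0.42, adjusted p = 0.0505) did not pass there.

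The inhibitors of the ERK pathway were split, with 5 of 12 higher and 4 lower, against 24.6% and 25.5% of all genes, and a median of 0.16. DUSP4, a nuclear ERK phosphatase gene, had 135.1, 141.0 and 107.8 normalized counts in Ctrl and 494.1, 533.7 and 487.0 in NE libraries, 1.98 higher on the log2 scale (standard error 0.15, adjusted p = 4.7e-05 by limma). DUSP6, the cytoplasmic counterpart, went the other way, from 1470, 1621 and 1215 to 584.0, 542.4 and 636.0, which is -1.28 on the log2 scale (standard error 0.13, adjusted p = 0.000177). Neither gene's groups overlapped, and the GC correction gave 2.29 and -1.34. DUSP5 fell by 1.05 (adjusted p = 0.00021) and SPRY4 by 0.61 (adjusted p = 0.000853), whereas SPRY3 rose by 1.46 from 30.4 ± 15.1 normalized counts (adjusted p = 0.00625) and NF1 by 0.86 (adjusted p = 0.00285). SPRED3 fell by 0.62 (adjusted p = 0.00493). Without Ctrl replicate 3, 6 of the 12 were higher and 4 lower, against 31.9% and 32.5% of all genes. After GC correction 3 of the 12 were higher and 3 lower, against 14.5% and 17.7% of all genes. DUSP5 was then at -0.60 and SPRY4 at -0.30 (adjusted p = 0.0103 and 0.0243), and NF1, SPRY3 and SPRED3 did not pass.

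Among 10 genes used as a readout of ERK activity, 4 of which are also in the feedback list, 1 rose and 5 fell, against 24.6% and 25.5% of all genes, with a median of -0.28. Besides DUSP4, DUSP6 and SPRY4 these were EPHA2, CCND1 and ETV4. EPHA2, an ephrin receptor gene, fell from 9071 ± 362 to 3203 ± 42.8 normalized counts (SD, n = 3), by 1.50 on the log2 scale (adjusted p = 1.4e-05 by limma). CCND1, the cyclin D1 gene, had 17488, 17544 and 22307 normalized counts in Ctrl and 9013, 7613 and 6628 in NE libraries, and fell by 1.30 (adjusted p = 0.000205). ETV4, an ETS factor gene, fell by 1.29 (adjusted p = 0.00013), and its relative ETV5 had a log2 fold change of 0.06 (adjusted p = 0.706). After GC correction 2 of the 10 were higher, DUSP4 and SPRY2, and 5 were lower, against 14.5% and 17.7% of all genes, with EPHA2 at -0.90, CCND1 at -0.99 and ETV4 at -0.69. The GC content of the exons of EPHA2 and ETV4 is 60.4% and 60.1%. PHLDA1 and SPRY2 had log2 fold changes of 0.31 and 0.19 (adjusted p = 0.0562 and 0.202). Without Ctrl replicate 3 they were at 0.44 and 0.24 (adjusted p = 0.000346 and 0.0373 by limma). In that fit 3 of the 10 were higher and 5 lower, against 31.9% and 32.5% of all genes.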

How the data were processed

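RNA-seq of 3 Ctrl and 3 NE libraries from NCI-H1299 was used. The authors aligned reads to hg38 with HISAT2 2.0.5 and counted them per gene with featureCounts 1.5.0-p3; the annotation release and strand setting are not given in the sources used here. Although the methods describe FPKM, the deposited signal proved to be read counts after division by a library-wide size factor: 100% of values in each library were whole multiples (within 0.05 reads) of the value of 1 read.

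Column names gave the group and replicate. limma 3.58.1 (lmFit, eBayes with trend) was run on log2(value + 1), with Benjamini-Hochberg adjustment over all 15013 genes whose mean value reached 10. Fold changes on this scale understate those of low genes. FPKM were recomputed from the recovered reads with the merged exons of GENCODE v44, matched for 25813 of 26025 genes. GC correction subtracted each library's fitted spline on exon GC content (natural, 5 degrees of freedom). edgeR 4.0.16, DESeq2 1.42.0 and voom on the recovered reads, other pseudocounts, filters and scalings, a replicate block and each library left out were alternatives. The tests were tested on simulated data. Members, pathway lists, motifs and the rule for naming genes (all members, list genes past both criteria and up to 3 more per list) were chosen with earlier results of these data known. ADAM8, PDPK1, SOCS3, PTPN1 and ETV5 were named after their values were seen, and ADAM17 is also named outside the rule. Some list genes that the rule names are counted but not reported by name here. Permutation tests were exact and two-sided.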

Additional observations from a re-analysis of the deposited data

How the results depend on the processing

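Over 21 alternatives, of which the GC correction without Ctrl replicate 3 was chosen after seeing the data, 157 of 186 values of the 9 genes kept their direction and their side of the threshold. TGFA kept both throughout. For what follows the cause was not tested, except that a mean of at least 50 leaves AREG out. GC correction gave 549 genes higher and 346 lower, and without Ctrl replicate 3 as well 654 and 525. Without the fold criterion 3693 and 3828 were called, and with scaling to total reads on genes, where the median of all genes moved by 0.13, 600 were lower. With each library left out 815 to 1628 genes were higher and 777 to 1507 lower. Both criteria were met by 2 members, by 5 without the fold criterion, and by 1 after GC correction with or without Ctrl replicate 3, with a mean of at least 50 or with a replicate block; leaving out a library gave 1 to 2, with 1 without Ctrl replicate 3, NE replicate 2 or NE replicate 3. An adjusted p under 0.05 was reached by 5 members, by 3 after GC correction with or without Ctrl replicate 3, and by 3 (without NE replicate 2) to 7 (without Ctrl replicate 3) with a library left out.

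Same-numbered Ctrl and NE libraries deviated from their group means with correlations of -0.163, 0.0799 and -0.151, so no pairing by number was seen. With a replicate block 3 members passed, AREG (adjusted p = 0.0572) and EGFR (0.0527) not among them, and with the block and GC correction 2 did, with 474 genes higher and 316 lower. In that last fit the lists had 3 changed genes in the RAS-ERK cascade, 5 in ERK feedback, 1 in the PI3K-AKT branch, 3 among sheddases and 4 among receptor regulators. GC correction alone gave 6 for the cascade and 2 for PI3K-AKT, or 4 without Ctrl replicate 3, and no filter gave 2 for the other family members.

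Signs turned for HBEGF (0.103 with GC correction, with or without the block, 0.212 also without Ctrl replicate 3, 0.0914 with scaling to total reads, 0.0335 without Ctrl replicate 3, 0.00247 without NE replicate 2), BTC (-0.072) and NRG1 (-0.00982) with GC correction with or without the block, and ERBB3 (-0.1002 without Ctrl replicate 3, in a range up to 0.6001 with a library left out). Depth limits AREG, BTC and ERBB3, with 8 to 74 reads per library.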
